A study of Mus musculus with 60 samples.

Results

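The 10 libraries described here are liver total RNA of male CC042/GeniUnc mice fed a diet rich in fat and sucrose, named HF/HS for short, for 40 weeks (5 libraries) or 60 weeks (5 libraries). They were chosen by sex, diet and duration in the labels, and they are 10 of the 60 libraries of the study. CC042/GeniUnc is a Collaborative Cross strain, an inbred line bred from a mixture of founder strains, so all animals share 1 genotype and no allele was engineered. Per the labels, the HF/HS diet drew 42% of its energy from milkfat and held 0.2% cholesterol and more than 30% sucrose. The study also had females and a control diet of matched ingredients with little fat and less sucrose, each at 20, 40 and 60 weeks, with 5 libraries in every group. The labels number the 40-week libraries 512, 513, 521, 522 and 523 and the 60-week libraries 91, 92, 101, 251 and 252, and values below follow that order. What the numbers stand for, the age of the animals, the hour of collection and feeding before it are not stated in the labels. The 2 durations share no range of numbers, so duration, cohort and collection cannot be told apart. The labels name separate libraries, so p-values measure the spread between libraries of a group. Unless said otherwise, that spread was estimated in 1 fit over all 60 libraries, not over these 10 alone.

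The liver sets the supply of glucose, lipids, bile acids and plasma proteins, and diets rich in fat, sucrose and cholesterol load it with lipid. Its metabolism is timed by the circadian clock. In that loop BMAL1 (gene Arntl) pairs with CLOCK or NPAS2 and binds E-boxes, which drives the period (Per) and cryptochrome (Cry) repressors, the REV-ERB receptors (Nr1d1, Nr1d2) and the output factors DBP, TEF and HLF. REV-ERB and ROR receptors compete for ROR elements that control Arntl, and DBP and NFIL3 (E4BP4) compete for D-boxes. Another pathway that figures here is the unfolded protein response, in which chaperones of the endoplasmic reticulum are induced through ER stress response elements (ERSE).

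Promoters of 5 genes of these 2 pathways are shown because members of both moved between 40 and 60 weeks. Each is the 250 bases before the RefSeq transcript start (GRCm38.p6, the assembly of mm10), printed 5′ to 3′ on the gene's strand. Capitals mark matches on either strand to the ROR element TNGGTCA in Arntl (chr7:113207215-113207464, + strand), the E-box CACGTG in Cry1 (chr10:85185055-85185304, - strand), the D-box TTATGNAA in Per3 (chr4:151044666-151044915, - strand) and the ERSE (CCAAT, then any 9 bases, then CCACG) in Creld2 (chr15:88819396-88819645, + strand) and Calr (chr8:84846932-84847181, - strand).
Arntl: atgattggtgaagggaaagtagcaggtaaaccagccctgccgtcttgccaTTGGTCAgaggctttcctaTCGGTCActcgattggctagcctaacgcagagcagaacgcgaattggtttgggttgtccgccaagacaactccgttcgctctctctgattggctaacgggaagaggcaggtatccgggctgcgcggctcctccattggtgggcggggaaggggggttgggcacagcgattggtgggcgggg
Cry1: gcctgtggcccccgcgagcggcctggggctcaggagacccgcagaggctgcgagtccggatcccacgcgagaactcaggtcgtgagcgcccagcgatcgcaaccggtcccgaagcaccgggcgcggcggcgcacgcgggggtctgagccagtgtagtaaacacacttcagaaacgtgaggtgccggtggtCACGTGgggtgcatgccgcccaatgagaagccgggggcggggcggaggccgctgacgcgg
Per3: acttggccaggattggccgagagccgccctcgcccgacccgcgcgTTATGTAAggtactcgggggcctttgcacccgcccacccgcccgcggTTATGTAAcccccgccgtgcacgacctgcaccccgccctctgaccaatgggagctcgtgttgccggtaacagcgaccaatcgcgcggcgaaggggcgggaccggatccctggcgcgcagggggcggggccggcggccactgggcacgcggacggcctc
Creld2: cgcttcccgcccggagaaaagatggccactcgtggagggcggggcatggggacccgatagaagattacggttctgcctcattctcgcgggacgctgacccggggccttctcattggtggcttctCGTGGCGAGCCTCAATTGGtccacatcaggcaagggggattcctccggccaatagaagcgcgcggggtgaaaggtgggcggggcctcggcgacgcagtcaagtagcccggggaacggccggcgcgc
Calr: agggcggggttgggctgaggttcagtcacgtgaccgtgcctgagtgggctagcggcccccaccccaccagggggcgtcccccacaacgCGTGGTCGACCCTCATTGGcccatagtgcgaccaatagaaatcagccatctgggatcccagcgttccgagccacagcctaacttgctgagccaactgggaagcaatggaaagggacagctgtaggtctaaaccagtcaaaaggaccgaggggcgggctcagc
Arntl holds 2 ROR elements, starting 200 and 181 bases before the transcript start, and Per3 holds 2 D-boxes, starting 205 and 158 bases before it. The 1 E-box of Cry1 starts 60 bases before the start. The ERSE lies 126 bases before it in Creld2 and 162 bases before it in Calr, both read on the strand opposite to the gene.

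Of 32851 RefSeq promoters of this length, 6.02% hold the E-box, 3.07% the D-box, 9.19% the ROR element and 0.113% the ERSE. None of these motifs contains another. Among the 6 clock genes that rose, all with a promoter in the table, Arntl and Nfil3 hold a ROR element and Cry1 an E-box. Of the 7 with a promoter among the 9 that fell, Tef and Bhlhe41 hold an E-box, Per3 a D-box, and Per3 and Tef a ROR element. The ERSE is in 4 of 13 promoters of unfolded protein response genes that rose (Hspa5, Calr, Dnajc3 and Creld2), and in 3 of 9 of those not called (Hsp90b1, Pdia6 and Canx). A match is a description of the letters in this window.

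Library totals in these 10 ran from 13185884 to 16858458 counts, and 14180 of 24982 gene entries had enough counts to be tested. Markers of hepatocytes summed to 57979 to 62041 CPM (counts scaled to a common library total) at 40 weeks and 55037 to 61233 at 60 weeks, with 0 of the 18 markers at 0. The haemoglobin genes Hba-a1, Hba-a2, Hbb-bs and Hbb-bt, 4 of 12 erythroid markers, were listed at 0 in all 10. Pancreas markers summed to 6.47 to 34.1 CPM.

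Library 91, 1 of the 5 at 60 weeks, went against its diet label on genes that respond to the diet. Of 303 genes called and at least 4-fold higher on HF/HS than on control diet at 40 weeks, library 91 lay nearer to the 60-week control median than to that of the other 4 libraries of its group in 267 (88.1%). For those 4 libraries the share was 5.61% to 11.9%. The lipid droplet gene Cidec was at 1.52 CPM in library 91 and 52.3 to 79.2 in the others, and Col1a1, a fibrillar collagen, was at 14.7 against 45.1 to 98.5. Moxd1, a male-biased monooxygenase-like gene, was at 283 CPM in library 91 and 0.488 to 2.15 in the other 4. That also lay outside the 60-week control males, which were at 0.540, 0.337, 3.14, 6.70 and 128 CPM. Hsd3b5, a male-biased steroid dehydrogenase, was at 286 against 6.47 to 46.4, and within the 55.9 to 304 CPM of the control males. Library 91 was kept under its label, and counts that move without it are given with and without it.

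**Figure D1:**
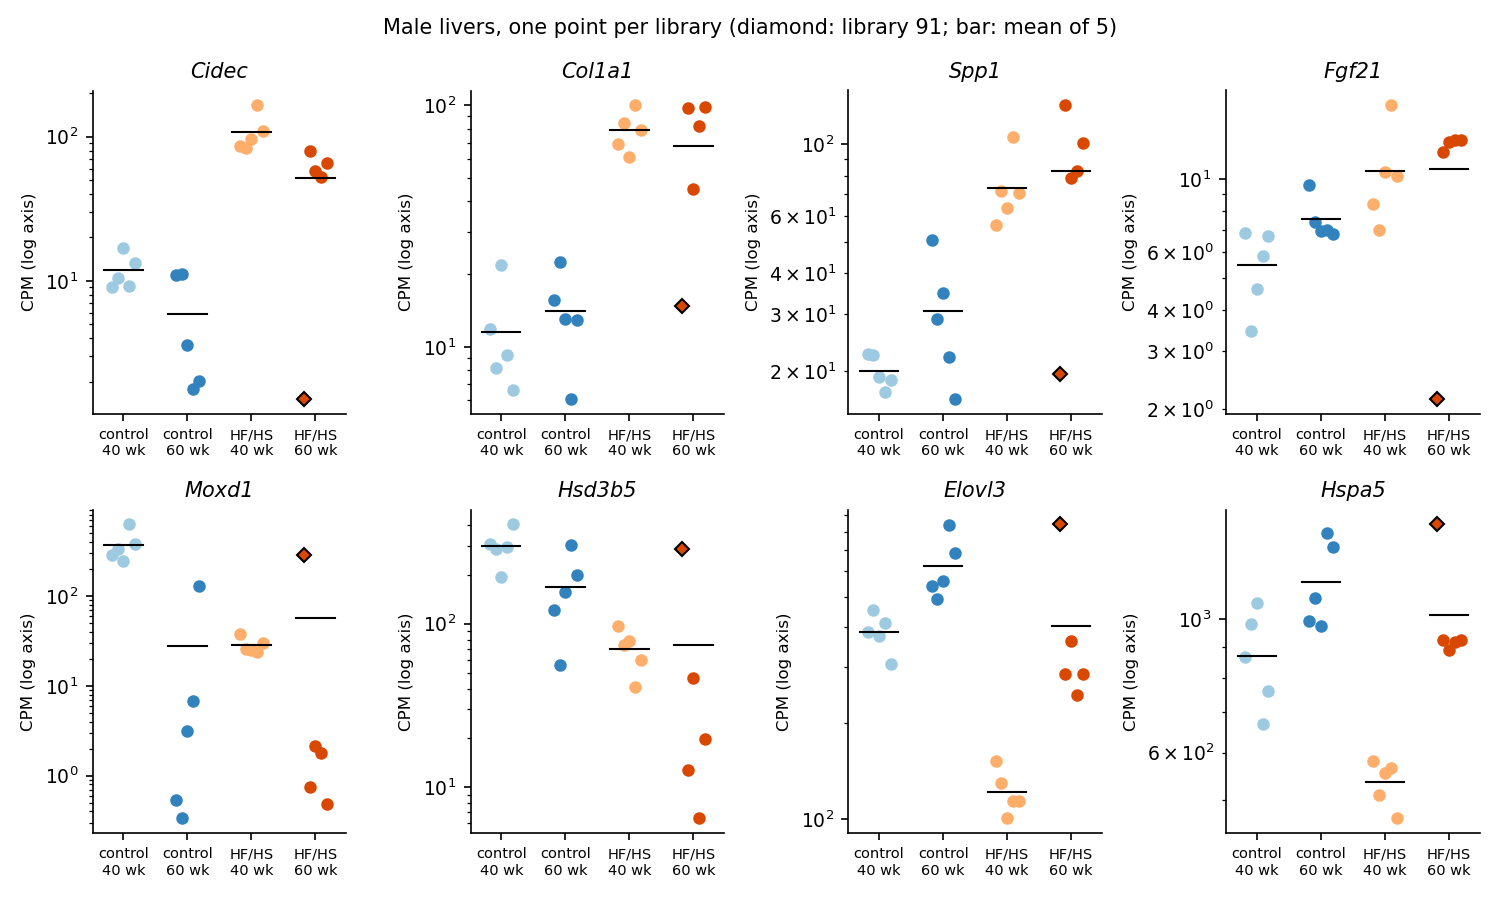
CPM (log axis) of 8 genes in each male library at 40 and 60 weeks on control and HF/HS diet, with a bar at each group's mean and a diamond for library 91. For Cidec, Col1a1, Spp1 and Fgf21 the diamond lies below the other 4 libraries of its group, and for Moxd1, Hsd3b5, Elovl3 and Hspa5 above them.

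Between 40 and 60 weeks on the HF/HS diet, genes of the circadian clock were among the largest shifts: Arntl, Npas2, Nfil3 and Cry1 were higher at 60 weeks in all 5 libraries than in any at 40 weeks, and Dbp, Per3, Bhlhe41 and Tef were lower. Many chaperones of the endoplasmic reticulum rose, and Cyp7a1, which encodes the enzyme that limits bile acid synthesis, and several genes of fatty acid oxidation fell. Few matrix genes and 0 acute phase or general macrophage genes were called. In all, 3572 of 14180 genes passed an adjusted p of 0.05 in edgeR's quasi-likelihood test with Benjamini-Hochberg adjustment (25.2%), 1741 higher (12.3%) and 1831 lower (12.9%) at 60 weeks. The count of each list below is to be read beside these shares. For counts on control diet the shares are 16.1% higher and 14.7% lower, and for HF/HS females 6.75% and 6.88%. For differences by diet and by sex they are 0.162% and 1.51%. Which direction held more genes in HF/HS males turned with the processing. RLE size factors gave 1947 higher and 1523 lower, no filter on low counts 1787 and 1285, and small non-coding RNA genes removed 1875 and 1572. DESeq2 gave 2003 and 1606, and only the libraries compared 2152 and 1846. Changes of at least 2-fold numbered 209 higher and 116 lower. Leaving out 1 of the 10 libraries gave 2711 calls (without library 512) to 3475 (without library 91). With the level of the clock list as a covariate, an alternative added after the data had been seen, 1017 genes were called.

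**Figure D2:**
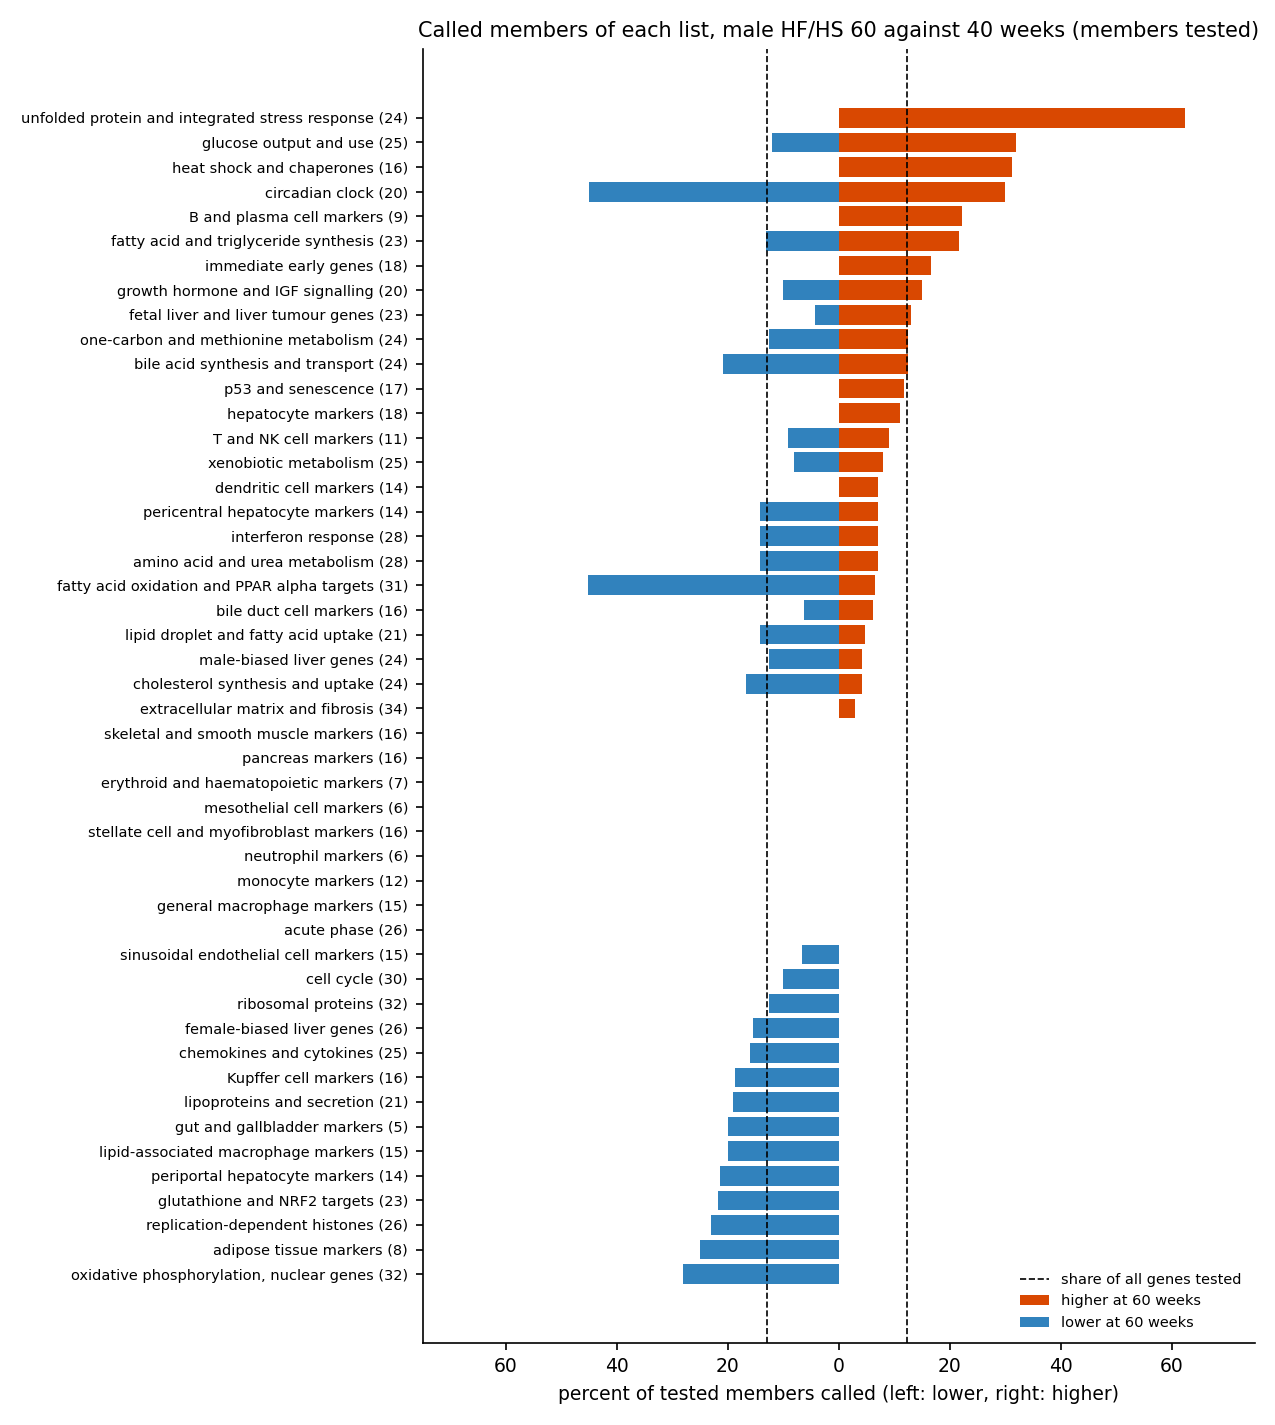
Percent of tested genes called higher (right) and lower (left) at 60 than at 40 weeks in each of 48 lists of pathway and cell type genes, with dashed lines at the shares over all genes (12.3% and 12.9%). The unfolded protein list reaches furthest to the right with 15 of 24 genes, while the clock list extends both ways with 6 and 9 of 20.

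Of the 20 clock genes, 6 rose, 9 fell and 5 were not called, and leaving out any 1 library gave 6 and 9 to 10. The CPM ranges of the 2 durations did not overlap for 15 of the 20, against 21.8% of all tested genes. The median log2 fold change of the list was -0.43, beside -0.02 over all genes. Genes of the list beyond the 4 with the largest change, Arntl and Dbp are given as members of the whole list.

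The activators were low at 40 weeks. Npas2 (chr1:39193731-39363236) was at 1.69, 1.69, 0.876, 2.77 and 1.58 CPM at 40 weeks and at 36.4, 22.5, 28.1, 23.1 and 27.3 CPM at 60 weeks. No library of one duration came near the other, and the log2 fold change was 3.99 ± 0.44 (SE; adjusted p = 5.18e-09). Arntl (chr7:113207465-113314126), whose promoter with 2 ROR elements is shown above, was at 6.12, 5.54, 6.13, 8.87 and 6.88 CPM and then at 61.5, 45.7, 49.9, 41.4 and 43.7 CPM. It rose in every 60-week library above every 40-week library, by 2.85 ± 0.24 on the log2 scale (adjusted p = 3.11e-12). Clock, the third activator, rose by 0.61 ± 0.08, and the ROR receptor gene Rora by 0.52 ± 0.10.

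Nfil3 (chr13:52967209-52981073), a repressor at D-boxes, was at 10.5, 6.62, 9.49, 9.77 and 10.6 CPM at 40 weeks and 59.8, 49.2, 65.3, 53.7 and 58.3 CPM at 60 weeks. The groups lay wide apart, with a log2 fold change of 2.61 ± 0.34 (adjusted p = 1.80e-07). Its opponent Dbp (chr7:45705088-45710203) was at 95.9, 121, 100.2, 83.0 and 100 CPM and then at 3.60, 10.7, 4.74, 4.03 and 3.11 CPM. All 60-week libraries were low, library 92 least so, and the log2 fold change was -4.25 ± 0.69 (adjusted p = 9.90e-06). Tef, a relative of Dbp, fell from 178 to 220 CPM to a range of 60.3 to 102, a log2 fold change of -1.42 ± 0.26. Hlf, the remaining member of that family, fell by 0.43 on the log2 scale.

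Among the repressors, Per3 (chr4:151003652-151044665) was at 53, 60.7, 69.3, 46.4 and 54.4 CPM at 40 weeks and 8.08, 10.3, 6.68, 9.45 and 7.86 CPM at 60 weeks, with no overlap. Its log2 fold change was -2.74 ± 0.42 (adjusted p = 4.26e-06). Per2 fell by 1.03 on the log2 scale, whereas Per1 was at 23.7 to 40.3 CPM and then 27.2 to 75.3, overlapping ranges (log2 fold change 0.63 ± 0.40, adjusted p = 0.261). Cry1 moved the other way from Per3. It was at 7.74, 6.96, 9.05, 7.21 and 7.39 CPM and then at 26.8, 20.5, 21.8, 18.2 and 15.4 CPM, so every 60-week library was higher (1.42 ± 0.26, adjusted p = 6.08e-05). Cry2 was not called at -0.30 ± 0.14 (adjusted p = 0.108). It was the 1 clock gene added to those that fell without library 91.

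Bhlhe41, a repressor that competes at E-boxes, fell from 13.9 to 18.3 CPM to 1.65 to 6.0 CPM (-2.32 ± 0.45), and its relative Bhlhe40 fell by 0.45 on the log2 scale. Of the REV-ERB genes, Nr1d2 fell by 0.97 on the log2 scale, from 179.6 to 200 CPM to 79.0 to 120.4. Nr1d1, which usually has the widest daily swing of that pair, was at 126 to 161 CPM and 69.4 to 148 CPM, and its log2 fold change of -0.43 ± 0.32 did not pass (adjusted p = 0.353). The clock-linked ubiquitin protease gene Usp2 fell by 1.49 on the log2 scale. Ciart, a further repressor, was at -1.18 ± 0.56 and not called.

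**Figure D3:**
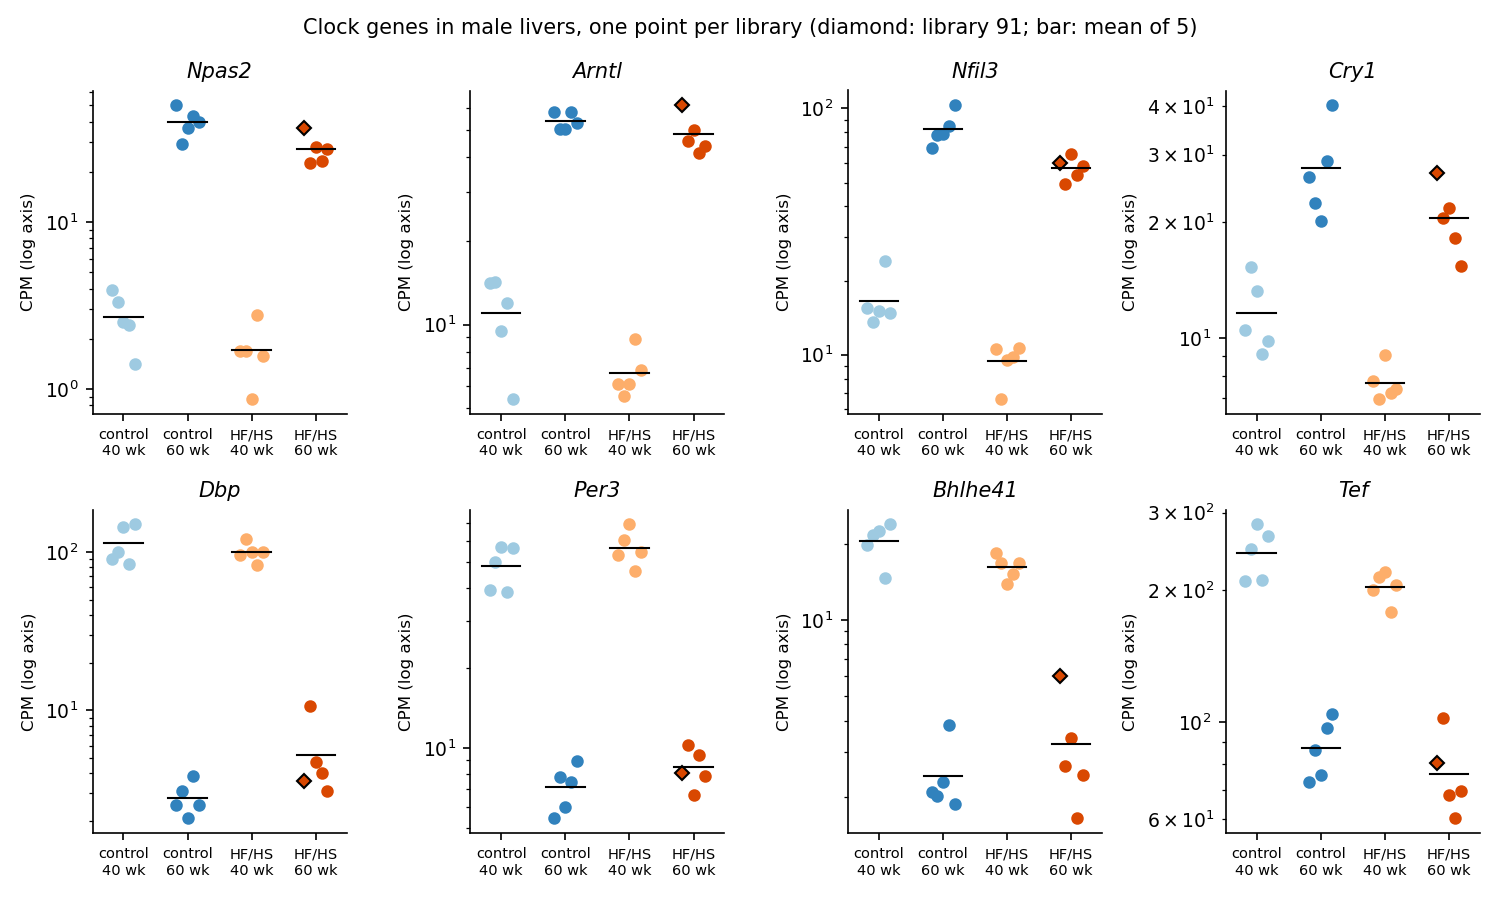
CPM (log axis) of 8 clock genes in each male library at 40 and 60 weeks on control and HF/HS diet, with a bar at each group's mean and a diamond for library 91. Npas2, Arntl, Nfil3 and Cry1 are higher and Dbp, Per3, Bhlhe41 and Tef lower in all 5 HF/HS libraries at 60 weeks than in any at 40 weeks.

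Males on the control diet, which share no library with these 10, gave similar values for the clock genes. Arntl was at 14.1, 14.2, 9.51, 12 and 5.41 CPM at 40 weeks and 58.0, 50.4, 50.3, 57.9 and 53 CPM at 60 weeks there (log2 fold change 2.29), and Dbp changed by -5.34 ± 0.75. Of the list, 5 rose and 9 fell on control diet, where 30.8% of all genes were called (16.1% higher and 14.7% lower), and 0 of 20 differed between diets. In females on HF/HS, where 13.6% of genes were called (6.75% higher and 6.88% lower), 0 clock genes rose and 0 fell. Arntl had a log2 fold change of 0.39 (adjusted p = 0.225) in females, Npas2 of 0.52 (adjusted p = 0.325) and Dbp of -1.18 ± 0.63 (adjusted p = 0.210). The female minus male difference passed for 9 of the 20, against 1.51% of all genes, among them Npas2 (-3.47, adjusted p = 1.67e-04), Arntl (-2.47, adjusted p = 4.31e-06) and Per3 (2.26, adjusted p = 0.0287). The difference for Per3 lost its call without male library 521 (2.15), 91 (2.23) or 101 (2.16) or female library 471 (2.07), 481 (2.14) or 281 (2.09). For Dbp the difference was 3.07 and did not pass (adjusted p = 0.0661).

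A first principal component, computed from the clock list over all 60 libraries, held 55.6% of its variance and places each library on 1 scale. Male HF/HS libraries lay between -6.59 and -5.39 at 40 weeks and between 0.53 and 2.28 at 60 weeks. On control diet, males lay between -6.63 and -4.75 and then between 1.68 and 3.10. Female HF/HS libraries spanned -1.58 to 1.55 at 40 weeks and 0.16 to 1.57 at 60 weeks, which overlap. The 10 libraries at 40 weeks in males were apart from those at 60 weeks on both diets. In males this component therefore cannot be told apart from duration, and neither can the covariate fit separate them. A call lost in that fit does not show what the change was due to. The part of the clock component in the other results was not tested.

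Beside clock genes, the rule for the 10 highest and 10 lowest changes named 14 genes, and the call of none of these 20 was lost when any 1 of the 10 libraries was left out. With the clock component as a covariate, 4 of the 20 kept their call (Npas2, Arntl, Neat1 and Chka) and 12 lost it with the same sign. The other 4 changed sign and were not called: Dbp (adjusted p = 0.409), Per3 (0.248), Bhlhe41 (0.472) and Igfbp1 (0.746). Among the 14 outside the clock list, 11 lost the call with the same sign, and Igfbp1 lost it with a change of sign. Cdkn1a (chr17:29090976-29100727), which encodes the cell cycle inhibitor p21, was at 16.0, 21.3, 15.8, 36.2 and 23.5 CPM at 40 weeks and 153, 175, 168, 188 and 217 CPM at 60 weeks. The 2 groups were far apart, with a log2 fold change of 3.0 ± 0.49 (adjusted p = 1.32e-05), and 0.94 (adjusted p = 0.292) with the clock covariate. On control diet it changed by 3.20, while the value in HF/HS females was 0.41 (adjusted p = 0.601) and the sex difference -2.59 (adjusted p = 0.0284), which was lost without female library 471 (-2.39) or 122 (-2.49). Of 17 p53 and senescence genes 2 rose, Cdkn1a and Trp53inp1 (0.84 ± 0.24), and 0 fell, which is near the 12.3% of all genes that rose. Gdf15, a stress hormone, was not called at 0.74 ± 0.36. On control diet 14 of the 17 rose and 0 fell (median log2 fold change 0.67, beside 0.27 on HF/HS), with Gdf15 at 2.31 (adjusted p = 3.28e-06), and 0 of the 17 differed between diets. Without library 91, 4 of the 17 rose, with Cdkn2b at 1.27 and Btg2 at 1.07 added. The count also moved by over 1.5 times without library 92, within a range of 2 to 4.

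Chka (chr19:3851773-3894369), choline kinase alpha of phosphatidylcholine synthesis, was at 35.5, 32.0, 32.5, 45.5 and 37.4 CPM at 40 weeks and at 211, 171, 214, 187 and 217 CPM at 60 weeks. The ranges were narrow and apart (2.45 ± 0.23, adjusted p = 5.98e-11). In a one-carbon and methionine list, which does not hold Chka, 3 of 24 genes rose and 3 fell. This is near the 12.3% and 12.9% of all genes. The number that fell was 1 to 3 on leaving out 1 library and moved without library 513, 522, 523, 91, 101 or 252. For Chka the female minus male difference was -1.86 (adjusted p = 3.28e-04).

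Neat1 (chr19:5824708-5845478), a long non-coding RNA that scaffolds nuclear paraspeckles, was at 335, 407, 485, 728 and 675 CPM and then at 3575, 2254, 2511, 3186 and 3297 CPM. Every 60-week library exceeded every 40-week library (2.50 ± 0.33, adjusted p = 2.42e-07), and Neat1 also rose in HF/HS females, by 1.63 (adjusted p = 6.99e-04). Whether strand was used in counting is not stated, so RNAs antisense to or overlapping a gene cannot be separated from it. Zbtb16, a zinc-finger transcription factor, rose by 2.72 ± 0.50, Adcy1, an adenylate cyclase, by 3.07 ± 0.59 and Hif3a, a hypoxia-inducible factor subunit, by 2.60 ± 0.51. Adcy1 and Hif3a were low at 40 weeks, at 0.442 to 0.901 and 0.195 to 1.01 CPM. At 60 weeks library 91 was at 1.33 CPM for each, and the other libraries at 4.10 to 9.58 and 2.32 to 5.91.

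Among genes that fell, Wee1, a kinase that delays mitosis and a known clock target, was at 33.7, 41.6, 38.4, 28.8 and 34.3 CPM at 40 weeks and 5.62, 10.3, 8.94, 8.36 and 12.4 CPM at 60 weeks. The groups did not overlap (-1.95 ± 0.26, adjusted p = 2.77e-07), and the female minus male difference was 1.82 (adjusted p = 0.00337). Acot3, an acyl-CoA thioesterase of peroxisomes with near-identical relatives that can share reads, changed by -3.64 ± 0.62. Pnldc1, an RNA-trimming nuclease, changed by -2.13 ± 0.34, Nrep by -1.93 ± 0.31, Themis by -1.95 ± 0.40 and Sptlc3, a serine palmitoyltransferase subunit, by -2.15 ± 0.38.

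Of 24 genes of the unfolded protein and integrated stress response, 15 rose and 0 fell in male HF/HS livers, against 12.3% and 12.9% of all genes. Their median log2 fold change was 0.45. The CPM ranges did not overlap for 15 of the 24, against 21.8% of all tested genes. Members beyond the 4 that the naming rule picks are given as part of the whole list. Hspa5 (chr2:34771970-34777547), the chaperone BiP, was at 581, 509.6, 555, 565 and 467 CPM at 40 weeks and 1438, 925, 889, 916 and 923 CPM at 60 weeks. Library 91 was highest, but the other 4 also lay above every 40-week library (0.93 ± 0.16, adjusted p = 2.01e-05). Manf, a secreted factor of the endoplasmic reticulum, was at 58.1, 52.9, 57.8, 54.6 and 48.8 CPM and then at 176, 108, 103, 98.2 and 109 CPM. Its ranges were apart as well (1.13 ± 0.20, adjusted p = 3.20e-05).

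Creld2, whose promoter with the ERSE is shown above, was at 32.2, 24.6, 28.5, 22.5 and 22.7 CPM and then at 115, 49.7, 47.8, 46.2 and 39.3 CPM, again with library 91 far above the rest (1.19 ± 0.28, adjusted p = 0.00116). The folding factors Calr, Pdia4 and Hyou1 rose by 0.42 ± 0.10, 0.49 ± 0.12 and 0.79 ± 0.19. Of the arm driven by ATF4, Chac1, which degrades glutathione, rose by 1.32 ± 0.36 and Atf5 by 0.36 ± 0.07, whereas Atf4 (0.20 ± 0.12), Ddit3 (0.44 ± 0.25), Trib3 (0.46 ± 0.21) and Asns (-0.83 ± 0.40) were not called. Ddit4, an inhibitor of mTOR complex signalling, rose by 1.80 ± 0.54 and was at 1.41 and not called without library 252. Herpud1, of the degradation machinery, rose by 0.88 ± 0.29 and was not called without library 512 (0.82) or library 252 (0.80).

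Without library 91, 11 of the 24 rose, the lowest number on leaving out any 1 library. Sdf2l1, a chaperone cofactor, moved from 0.99 to 0.61 (adjusted p = 0.0699) without it, Dnajb11 from 0.54 to 0.36, still called, and Pdia3 (0.21), Dnajb9 (0.50) and Dnajc3 (0.22) lost their calls. Dnajb9, at 0.59 ± 0.22 (adjusted p = 0.0467), kept its call on leaving out library 92 or 251 and lost it with any other of the 10, at 0.50 to 0.62. With the clock component as a covariate, 3 rose and 1 fell. On control diet 9 of the 24 rose and 1 fell, and 0 differed between diets. In HF/HS females 0 rose and 2 fell, and the sex difference passed for 9 of the 24, among them Hspa5 (-1.09, adjusted p = 0.00353), Manf (-1.44, adjusted p = 0.00231) and Creld2 (-1.41, adjusted p = 0.0467). The difference for Creld2 was lost in 11 of 20 fits that left out 1 library, and was -1.05 without library 91.

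**Figure D4:**
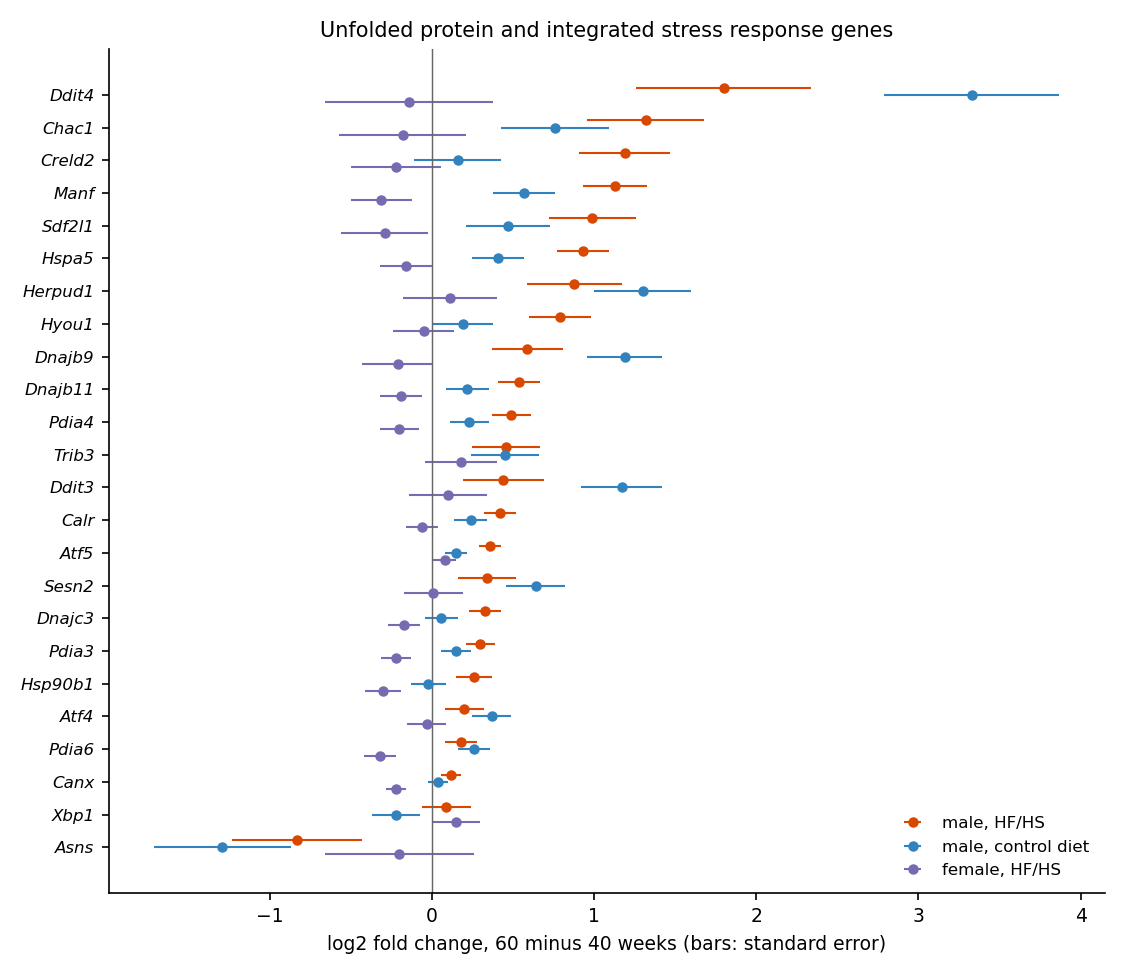
Log2 fold change (60 over 40 weeks) ± SE of the 24 unfolded protein and integrated stress response genes in male HF/HS, male control and female HF/HS livers. Points of male HF/HS livers lie right of 0 for 23 of the 24 genes, all but Asns, while those of HF/HS females lie left of 0 for 18.

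A list of heat shock genes and chaperones included 5 of 16 genes that rose and 0 that fell, beside 12.3% and 12.9% of all genes. It was led by Hsph1, an HSP70 exchange factor, which went from 42.8 to 62.6 CPM to 101 to 168 CPM (1.25 ± 0.26). The count that rose was as low as 3, and moved by over 1.5 times without library 513, 523 or 91. Of 18 immediate early genes, 3 rose (Fosb 1.57, Dusp1 1.06 and Fosl2 0.87) and 0 fell, and 6 rose without library 91. Fosb was at 1.30 and not called without library 512, and Dusp1 at 0.84 and not called without library 252. On control diet 13 of the 18 rose, yet 0 differed between diets.

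The gene for the first step of the main route of bile acid synthesis was lower at 60 weeks. Cyp7a1 (chr4:6265612-6275633), cholesterol 7-alpha-hydroxylase, was at 313, 270.4, 376, 243 and 358 CPM at 40 weeks and 74.7, 66.9, 45.1, 32.0 and 41.6 CPM at 60 weeks. The lowest 40-week library stood well above the highest 60-week library (-2.58 ± 0.59, adjusted p = 9.31e-04). On control diet it was at 58.7, 83.0, 109, 197 and 83.1 CPM and then at 63.5, 43.2, 18.2, 24.0 and 38.7 CPM, which overlap slightly (-1.50, adjusted p = 0.0417). In HF/HS females it was at -1.18 and not called (adjusted p = 0.150), and neither the diet difference (adjusted p = 0.595) nor the sex difference (1.40, adjusted p = 0.418) passed.

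Of 24 genes of bile acid synthesis and transport, 3 rose and 5 fell (as few as 3 without library 251 or 252), beside 12.3% and 12.9% of all genes. The bile acid receptor gene Nr1h4 (FXR) fell by 0.62 on the log2 scale, from 216 to 241 CPM to 135 to 175 CPM. Klb, the co-receptor through which intestinal FGF15 acts on hepatocytes, fell by 0.64 on the log2 scale. The receptor Fgfr4 rose by 0.33 ± 0.07, and the canalicular export pump gene Abcb11 rose by 0.35 ± 0.08, from 563 to 618 CPM to 728 to 765 CPM. The female minus male difference for Abcb11 was -0.48 (adjusted p = 0.0125).

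Genes of fatty acid oxidation and PPAR alpha targets were lower on balance: 14 of 31 fell, 2 rose, and the median was -0.32. Cpt1a (chr19:3322334-3385733), which admits long-chain fatty acids to mitochondria, was at 844, 907, 939, 898 and 904 CPM at 40 weeks and 402, 558, 541, 485 and 489 CPM at 60 weeks. All 60-week libraries were lower (-0.86 ± 0.14, adjusted p = 1.66e-05). Acaa1a, a peroxisomal thiolase, changed by -0.54 ± 0.10, Hadhb of the mitochondrial trifunctional protein by -0.50 ± 0.11 and Hadh by -0.39 ± 0.09, all called. These 3 lie outside the naming rule, as do Angptl4, Irs2, Fgfr4, Mlxipl and Srebf1 in this and related lists, and were chosen after their values were seen.

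In the same list Angptl4, an inhibitor of lipoprotein lipase, rose by 0.81 ± 0.24. Pdk4, a kinase that blocks pyruvate oxidation, rose by 0.93 ± 0.32 but was not called without library 512, 513, 523 or 101 (0.87, 0.91, 0.88 and 0.87). The count of genes that fell ran from 7 to 13 on leaving out 1 library, was 8 without library 91, and also moved by over 1.5 times without library 512, 521, 522, 251 or 252. With the clock component as a covariate 0 rose and 0 fell. Control diet gave 1 higher and 10 lower of 31 and HF/HS females 0 and 3. Genes encoding respiratory chain subunits fell in 9 of 32 and rose in 0, with values such as -0.29 for Ndufv2 (-0.22 and not called without library 251), and the count ranged from 0 to 9 and moved by over 1.5 times without any 1 library but 91 and 92.

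Among 25 genes of glucose output and use, 8 rose and 3 fell. Igfbp1, an insulin-repressed binding protein of IGF, was at 9.37, 17.8, 31.6, 25.5 and 23.2 CPM at 40 weeks and 38.4, 104, 119.8, 208 and 199 CPM at 60 weeks. All 60-week libraries were higher, library 91 least so (2.64 ± 0.61, adjusted p = 0.00114). Ppp1r3c, which targets a phosphatase to glycogen, was at 53.5, 37.2, 31.7, 35.4 and 32.8 CPM and then at 179, 135, 109, 89.2 and 169 CPM, with no overlap (1.83 ± 0.27, adjusted p = 2.68e-06). Gys2, liver glycogen synthase, fell from 194 to 222 CPM to 101 to 129 CPM (-0.86 ± 0.12). The insulin signalling genes Irs2 and Foxo1 each rose by 0.79 ± 0.19. The gluconeogenic enzyme genes G6pc (0.51 ± 0.32) and Pck1 (0.52 ± 0.24) were not called.

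Of 23 genes of fatty acid and triglyceride synthesis, 5 rose and 3 fell. As few as 3 rose without library 512 or 251, and as few as 1 fell without library 251. Lpin1, a phosphatidate phosphatase, was at 76.5, 59.7, 70.4, 106 and 77.0 CPM and then at 237, 296, 259, 352 and 388 CPM, all higher (1.97 ± 0.54, adjusted p = 0.00510). Elovl3, an elongase, rose by 1.72 ± 0.37, with library 91 at 842 CPM and the other 60-week libraries at 245 to 363. Mlxipl (ChREBP), a carbohydrate-responsive factor, rose by 0.69 ± 0.11, whereas Srebf1, the insulin-responsive factor of the pathway, fell by 0.63 on the log2 scale and was at -0.65 to -0.52 and not called without library 513, 521, 523, 92, 101, 251 or 252. Pnpla3 rose by 1.84 ± 0.61 and was not called without library 512 (1.75) or library 251 (1.55). Fasn (0.31 ± 0.37) and Scd1 (-0.38 ± 0.17) were not called.

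Lipid droplet and fatty acid uptake genes numbered 1 higher and 3 lower of 21, the former 0 to 2 without library 522, 92 or 252. Lipe, hormone-sensitive lipase, fell from 30.8 to 36.5 CPM to 13.7 to 19 CPM (-1.03 ± 0.14), and Pparg fell by 0.95 on the log2 scale. For Lipe the female minus male difference was 1.15 (adjusted p = 4.38e-04). Cidec (-1.08 ± 0.51, adjusted p = 0.111) and the fatty acid transporter Cd36 (-0.54 ± 0.26, adjusted p = 0.125) were not called. Of 24 cholesterol synthesis and uptake genes, 1 rose and 4 fell, beside 12.3% and 12.9% of all genes. These counts went to 0 and to 1 to 3 on leaving out 1 library, and Sqle was at 0.37 ± 0.45.

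Few fibrosis genes were called over this interval in the 10 libraries as labelled. Of 34 extracellular matrix genes, 1 rose (Bgn, a proteoglycan, 0.29 ± 0.10) and 0 fell. Bgn was not called without library 512 (0.29), 521 (0.28), 92 (0.25), 251 (0.28) or 252 (0.23). Col1a1 was at 68.9, 84.9, 61.3, 100.2 and 78.9 CPM at 40 weeks and 14.7, 97.7, 45.1, 82.5 and 98.5 CPM at 60 weeks, which overlap (-0.22 ± 0.37, adjusted p = 0.71). Spp1, osteopontin, was at 0.17 ± 0.25 (adjusted p = 0.654) and Timp1 at -0.13 ± 0.41 (adjusted p = 0.850).

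Without library 91, 7 of the 34 matrix genes rose and 0 fell. The 6 others, named after their values were seen, were Thbs1 (1.25), Mmp2 (0.68), Ltbp2 (0.65), Col6a3 (0.61), Thbs2 (0.60) and Timp2 (0.43). Control diet males and HF/HS females each gave 7 higher and 0 lower, beside 16.1% and 6.75% of all genes that rose there. Of the 34, 0 differed by diet or by sex. Markers of stellate cells and myofibroblasts summed to 980.4 to 1205 CPM at 40 weeks and 1028 to 1180.3 CPM at 60 weeks, with 0 of 16 called in either direction. On control diet 7 of the 16 rose and 0 fell, beside 16.1% and 14.7% of all genes. Of the 16, 1 differed by diet and 1 by sex, beside 0.162% and 1.51% of all genes.

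Of 26 acute phase genes 0 rose and 0 fell by edgeR's test, although Saa1 ranged from 350.3 to 831 CPM at 60 weeks and 229 to 350.2 at 40 weeks (1.03 ± 0.78, adjusted p = 0.357). General macrophage markers had 0 of 15 called, and they summed to 567 to 829 CPM and then 366 to 753 CPM. Of 15 markers of lipid-associated macrophages 0 rose and 3 fell: Clec7a, a receptor for fungal glucans (-0.88 ± 0.30, adjusted p = 0.0276), Ctsd, a lysosomal protease (-0.39 ± 0.09, adjusted p = 6.51e-04), and Apoe, an apolipoprotein that hepatocytes also make (-0.22 ± 0.06, adjusted p = 0.00655). Clec7a was not called without library 512 (-0.73), 521 (-0.84), 91 (-0.75) or 101 (-0.79). Trem2 (-0.30 ± 0.38) and Gpnmb (-0.52 ± 0.42) of the same list were not called. The list summed to 4478 to 4751 CPM at 40 weeks and 3718 to 4121 CPM at 60 weeks, and on control diet 1 rose and 1 fell. Trem2, Gpnmb and Spp1 were a small part of these sums. Their means were 4.29, 34.2 and 73.4 CPM at 40 weeks and 3.48, 23.8 and 82.8 CPM at 60 weeks. Most of the sum lay in other members, so it is no measure of these cells. Kupffer cell markers fell in 3 of 16, beside 12.9% of all genes. Cd163, a haemoglobin scavenger receptor, was at 48.1, 9.19, 10.1, 15 and 13.7 CPM at 40 weeks and 10.6, 4.51, 4.47, 3.05 and 5.55 CPM at 60 weeks. Library 512 was far above the others, and library 91 overlapped the 40-week range (-1.78 ± 0.40, adjusted p = 7.17e-04, and -1.08 without library 512). In bulk tissue, fewer cells of a type and less RNA per cell cannot be told apart.

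Of 9 B and plasma cell markers, 2 rose: Jchain, the joining chain of secreted antibodies, from 2.80 to 4.29 CPM to 3.66 to 18.9 CPM, with library 91 in the 40-week range (1.64 ± 0.30), and Mzb1 (1.17 ± 0.37), which was not called without library 512 (0.96). Mzb1 was low throughout, at 0.130 to 0.632 CPM at 40 weeks and 0.694 to 1.16 at 60 weeks. The list summed to 17.7 to 22.8 CPM at 40 weeks and 18.8 to 38.2 at 60 weeks. In the list for bile duct cells, with 16 tested, 1 gene was higher and 1 lower. Sox9, also a marker of progenitors, rose by 0.86 ± 0.22 in male HF/HS livers and by 0.81 in HF/HS females. Krt23, a keratin, was at -1.52 ± 0.54 (adjusted p = 0.0318) and lost its call without library 512, 513, 521, 91, 101 or 251 (-1.55 to -1.30). Without library 91, 3 of the 16 rose, with Cftr at 0.94 and Pkhd1 at 0.48 added, and without library 92 the number that fell was 2. Mki67, of dividing cells, was at -0.14 ± 0.43, and the tumour markers Afp (-0.62 ± 0.25, adjusted p = 0.0645) and Gpc3 (0.31 ± 0.29) were not called.

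Sex-biased genes of hepatocytes depend on the pulse pattern of growth hormone. Of 24 male-biased genes 1 rose and 3 fell, and 1 and 7 did without library 91. The count that fell also moved, to between 1 and 7, without library 92 or 252. On control diet 0 of the 24 rose and 8 fell (median -0.62, beside -0.13 on HF/HS). Of 26 female-biased genes 0 rose and 4 fell on HF/HS (median -0.28), and 4 rose and 3 fell on control diet (median 0.75). Moxd1 was at 37.8, 25.7, 25.2, 24.1 and 29.7 CPM at 40 weeks and at 283, 0.751, 2.15, 1.77 and 0.488 CPM at 60 weeks. Library 91 was above and the other 4 below all 40-week libraries, so the log2 fold change was 1.01 ± 0.88 (adjusted p = 0.431) with library 91 and -4.44 ± 0.93 (adjusted p = 4.72e-04) without it. Hsd3b5 likewise went from 0.09 ± 0.55 to -1.69 ± 0.49 (adjusted p = 0.00901). Ugt2b38, with near-identical relatives, fell by 1.84 on the log2 scale, and was at -2.87 without library 91. Of growth hormone and IGF genes, Stat5b rose by 0.60 ± 0.07 and Hnf4a by 0.46 ± 0.10. Igf1 and Igfals were not called with library 91 and fell without it (-0.40 and -0.96). The list's 2 that fell became 1 to 4 without library 91, 251 or 252.

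In edgeR's fit over all groups few changes differed between diets, and other fits gave more. Of the 3572 genes called in male HF/HS livers, 2125 were also called in control males, 2119 of them in the same direction. They were 59.5% of the first list, where 30.8% of all genes tested were called in control males. They were 48.7% of the second list, where 25.2% of all genes tested were called in HF/HS males. The change differed by diet for 23 genes (0.162%), 10 with a more positive (0.0705%) and 13 with a more negative change (0.0917%) on HF/HS. At an unadjusted p under 0.05 they numbered 1738. The count was 66 with DESeq2 (41 more positive, 25 more negative), 210 with only the libraries compared (160 and 50) and 778 with limma voom (362 and 416). Leaving out 1 library gave 12 to 63, with 63 without control library 23 and 40 without control library 171. The count was 12 to 15 without HF/HS library 513, 521, 523 or 101 or control library 502, 11 or 22. With RLE size factors 16 were more positive and 10 more negative (61.5% in place of 43.5%), and with small non-coding RNA genes removed 16 and 11 (59.3%).

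**Figure D5:**
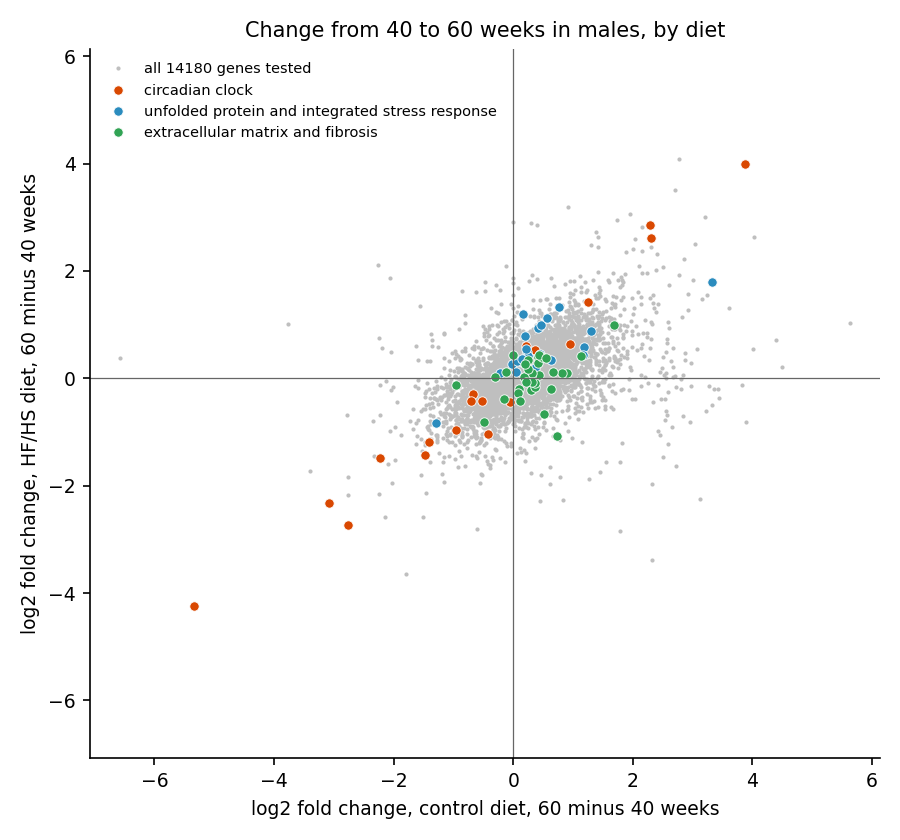
Log2 fold change (60 over 40 weeks) of 14180 genes in male control livers (x axis) against male HF/HS livers (y axis), with clock, unfolded protein response and extracellular matrix genes coloured. Clock genes lie at both ends, with Npas2 at 3.88 on control diet and 3.99 on HF/HS, and Dbp at -5.34 and -4.25.

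The change itself was called on control diet only for 13 of the 23 genes, on HF/HS only for 5 and on both for 5. Among the 23, Cyp2a4 (chr7:26307169-26315088) and Cyp2a5 (chr7:26835305-26843548), cytochromes P450 so alike that reads can be shared, moved apart most of those that also passed on HF/HS. Cyp2a5, the coumarin hydroxylase, was at 552, 210.4, 144, 114 and 149 CPM at 40 weeks and at 37.9, 111, 79.7, 33.3 and 67.7 CPM at 60 weeks on HF/HS. All 60-week libraries were lower, and library 512 was far above the rest (-1.83 ± 0.33, adjusted p = 6.08e-05, and -1.21 without library 512). On control diet it was at 84.3, 78.8, 72.0, 73.3 and 93.1 CPM and then at 145, 227, 130.4, 87.1 and 101 CPM, an overlap at the edge (0.78, adjusted p = 0.0614). The difference between diets was -2.61 ± 0.47 (adjusted p = 0.00606). For Cyp2a4 it was -3.32 ± 0.68 (adjusted p = 0.0148), from -1.55 on HF/HS and 1.78 on control, and the HF/HS change was -1.32 and not called without library 512.

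Fndc3b, a membrane protein with fibronectin repeats, was at 109, 99.1, 93.0, 105 and 101 CPM at 40 weeks on HF/HS and 176, 145, 159, 177 and 140.4 CPM at 60 weeks. It rose without overlap there (0.65 ± 0.17), and its change on control diet was -0.38 (adjusted p = 0.0789, difference 1.03, adjusted p = 0.0433). The differences of Fndc3b and Prps2 each lost their call in 12 of 20 fits that left out 1 library (highest adjusted p = 0.0845 and 0.108), with values of 0.98 to 1.15 and -0.68 to -0.55. Those of Cyp2a4, Cyp2a5 and Blvrb were lost in 0 of 20. Blvrb, biliverdin reductase B, differed by -0.66 (adjusted p = 0.00606), with -0.44 on HF/HS and 0.22 on control. Prps2, of nucleotide precursor synthesis, also differed by -0.66 (adjusted p = 0.0206), and its HF/HS change of -0.29 was not called without library 512 (-0.28), 521 (-0.27), 523 (-0.24), 101 (-0.26), 251 (-0.24) or 252 (-0.28).

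Library 512 stood apart at 40 weeks in glutathione and NRF2 target genes, of which 0 of 23 rose and 5 fell. Gsta1 had a log2 fold change of -1.81 ± 0.49 and -0.79 without library 512, Nqo1 -0.90 and -0.60, and Gstm1 -0.63 and -0.29, and none of these 3 was called without it. Gstm1 was also not called without library 91 (-0.51), 92 (-0.65), 101 (-0.65) or 251 (-0.57). Nqo1, a quinone reductase, was at 13.8 CPM in library 512 and 6.13 to 7.28 in the other 40-week libraries, against 2.72 to 5.79 at 60 weeks. As few as 1 gene of the list fell without library 512 or 251.

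Between sexes on HF/HS the change differed for 214 genes (1.51%), 79 with a more positive (0.557%) and 135 with a more negative change (0.952%) in females. Of the 3572 genes, 971 (27.2%) were also called in HF/HS females, where they made up 50.2% of 1933 calls, and 967 of these had the same direction. Over all genes tested, 13.6% were called in HF/HS females and 25.2% in HF/HS males. The 9 clock genes counted above and Hspa5, Manf, Creld2, Chka and Cdkn1a were among the 214. The count was 142 without library 91, 126 without female library 122 and 136 without female library 471. With small non-coding RNA genes removed before scaling, 70 were more positive and 200 more negative (25.9% in place of 36.9%).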

How the data were processed

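The authors deposited 1 table of whole-number counts, with gene symbols as rows and libraries as columns. Flash-frozen livers gave RNA by miRNeasy extraction, per the labels' protocols, which was made into libraries with a stranded, ribosome-depleted total RNA kit. Reads were mapped to mm10, per the submitters' processing notes. For aligner, counter, annotation and strand setting, nothing is given in the sources used here. Of 24982 entries, 4778 had no count, 26 had a symbol spoiled into a date (0.201% of counts) and 0 were mitochondrially encoded.

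The members, lists, tests and naming rule were chosen with earlier results of these data known. Counts entered edgeR 4.0.16 (R 4.3.3): filterByExpr (minimum count 10, total 15), TMM scaling, a quasi-likelihood fit of 12 group means over all 60 libraries (48 residual degrees of freedom) and Benjamini-Hochberg adjustment over 14180 genes at 0.05. Fold changes are at 60 over 40 weeks, and CPM uses TMM-scaled totals. Differences between diets and sexes were interaction contrasts. Named genes were the 10 highest and 10 lowest called changes (mean at least 1 CPM, ranges apart), up to 4 called members of each of 48 lists, a fixed panel, and 5 genes per difference. Alternatives included DESeq2 1.42.0 and limma 3.58.1 voom. The code was tested on simulated data. Libraries of a group differed beyond sampling noise (chi-square of 3.29 or more for each degree of freedom). Motifs were searched in RefSeq promoters, and gene positions are those of GENCODE for GRCm38, matched by symbol. No label gives a batch.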

Additional observations from a re-analysis of the deposited data

Results flagged for a closer look

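Groups of 5 libraries were searched with Dixon's ratio for 98 genes and 48 lists, 292 searches in all, of which 34 passed and 21 of these were library 91. Chance passes about 1 in 20 searches that are independent and fixed beforehand. These were neither, since genes were chosen with results known and many are members of the lists, so that rate is no yardstick here. At 60 weeks library 91 was highest in the chaperone genes Hspa5 (1438 CPM, next 925), Manf (176), Creld2 (115), Sdf2l1 (77.8) and Hyou1 (719), in the elongase Elovl3 (842) and in the male-biased genes Hsd3b5 (286), Mup20 (1519), Moxd1 (283) and Ugt2b38 (3.16). It was lowest in the lipogenic genes Fasn (1317) and Scd1 (8973) and the hepatokine Fgf21 (2.15). Its mean log2 CPM stood apart below the others for fatty acid and triglyceride synthesis (7.68), lipid droplet and uptake genes (4.95), cell cycle (0.57), fetal liver and tumour genes (2.01), female-biased genes (1.35) and stellate cell markers (4.87), and above them for male-biased genes (7.52) and hepatocyte markers (10.59).

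At 40 weeks library 512 was highest in Cyp2a5 (552 CPM, next 210.4), Cd163 (48.1), Nqo1 (13.8), Blvrb (86.9) and Ppp1r3c (53.5), and in the mean log2 CPM of glutathione and NRF2 targets (6.71) and Kupffer cell markers (5.11). Library 513 was lowest in Nfil3 (6.62 CPM) and highest in Gpc3 (1.89), and library 522 highest in Pdk4 (25.9). At 60 weeks library 92 was highest in Dbp (10.7), library 251 in erythroid and haematopoietic markers (2.24, mean log2 CPM) and library 101 in muscle markers (0.40).

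The change between 40 and 60 weeks differed by diet, HF/HS minus control on the log2 scale, for Cyp2a4 (-3.32), Cyp2a5 (-2.61), Fndc3b (1.03), Blvrb (-0.66) and Prps2 (-0.66). Female minus male on HF/HS, it differed for the clock genes and their targets Npas2 (-3.47), Arntl (-2.47), Nfil3 (-1.93), Clock (-0.66), Rora (-0.54), Per3 (2.26), Per2 (1.21), Tef (1.40), Usp2 (1.76) and Wee1 (1.82). Among chaperones it differed for Hspa5 (-1.09), Manf (-1.44) and Creld2 (-1.41). Other genes were Adcy1 (-2.81), Cdkn1a (-2.59), Chka (-1.86), Elovl3 (-2.01), Ppp1r3c (-1.36), Abcb11 (-0.48), Lipe (1.15), Pnldc1 (1.71) and Cyp2g1 (2.58). In HF/HS males Cyp2g1 was low, at 0.832 to 1.56 CPM at 40 weeks and 0 to 0.366 at 60 weeks. Each passed the interaction test, at an adjusted p under 0.05 in edgeR. On leaving out 1 of 20 libraries, the call was lost in 17 fits for Pnldc1 and Usp2, 15 for Cyp2g1, 13 for Ppp1r3c, 11 for Creld2, 9 for Elovl3, 8 for Rora, 7 for Tef, 6 for Per3, and 2 each for Adcy1 and Cdkn1a. It was lost in none for the other genes of the sex difference.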

How the results depend on the processing

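The count of 3572 genes for male HF/HS livers was 3470 with RLE size factors, 3072 without the filter on low counts, 3447 with small non-coding RNA genes removed, 3609 with DESeq2 and 3998 with only the libraries of the comparison. With limma voom it was 5656, and 778 for the diet difference, 4967 for HF/HS females and 1784 for the sex difference. DESeq2 gave 66 for the diet difference and 398 for the sex difference. Fitting only the libraries compared gave 210 for the diet difference, 3556 for HF/HS females and 980 for the sex difference. Leaving out 1 library gave 2711 to 3475 for male HF/HS, 3586 to 4217 for male control, 12 to 63 for the diet difference, 1289 to 1932 for HF/HS females and 126 to 313 for the sex difference (313 without female library 121, 126 without 122, 136 without 471, 142 without library 91). The female count was 1289 without library 471 or 281 and 1362 without 111.

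With the leading component of the clock genes as a covariate, added after the data were seen, 1017 genes were called in male HF/HS livers and 1164 in male control. Of these, 744 and 965 were also called without the covariate. On both diets the male durations lay apart on this component, so the fit cannot separate it from duration. The clock genes define this covariate, so reversals among them follow from its construction: Dbp 0.61, Per3 0.40, Bhlhe41 0.51, Nr1d1 1.29, Nr1d2 0.48, Tef 0.43, Usp2 0.05 and Hlf 0.12. Others reversed there were Igfbp1 -0.43, Pnpla3 -1.66, Pdk4 -0.06, Tat -0.14, Slc1a2 0.10, Oat 0.02, Por 0.08, Mycn -0.05, Fosb -0.32, Ddit4 -0.37 and Hist1h1e 0.16, for which the cause was not tested. Reversed means here that the sign changed in a gene called in the main fit, in the alternative or in both. Changes of sign in genes called in neither were not counted. Leaving out 1 library gave -4.44 (without library 91) to 1.38 for Moxd1, and Hsd3b5 reversed to -1.69 without library 91. With voom they were at -4.30 and -1.69.

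Over 196 genes and 17 settings, 2864 values kept their side of the threshold, 416 lost and 25 gained a call, and 23 reversed. Of the 2864, those called kept their direction, and those not called in either fit were counted whatever their sign. Beyond those given in the report, values that moved by over 1.5 times on leaving out 1 library were Igf2 without library 92 (0.60), Cfd without library 512 (-1.0), and Cyp2u1 (-1.12), Nudt7 (-1.16) and Hsd17b13 (-0.17) without library 91. No paired analysis was possible because the numbers in the labels differ between all groups. A group had 5 libraries of 13185884 to 16858458 counts, so small changes in genes of low count may go undetected.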

Other observations

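Some lists outside the pathways above had called members. Of 26 replication-dependent histone genes 0 rose and 6 fell, among them Hist1h1c, a linker histone, from 47.8 to 58.8 CPM at 40 weeks to 27.2 to 31.6 CPM at 60 weeks (-0.89 ± 0.16, adjusted p = 5.33e-05). The number that fell was 2 to 5 on leaving out 1 library and moved by over 1.5 times without library 512, 101 or 251. Of 28 interferon response genes 2 rose and 4 fell, beside 12.3% and 12.9% of all genes. Oas2, which senses double-stranded RNA, rose by 1.19 ± 0.25 (adjusted p = 3.15e-04), and Psmb9, an immunoproteasome subunit, fell by 0.65 on the log2 scale (adjusted p = 7.18e-05).

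Of 25 chemokine and cytokine genes 0 rose and 4 fell, as few as 2 without library 513, 521 or 91. Il1a, an alarmin, went from 11.2 to 14.1 CPM to 5.35 to 7.13 CPM, with no overlap (-0.93 ± 0.18, adjusted p = 1.57e-04). Tnfsf10, the death ligand TRAIL, went from 24.3 to 32.3 CPM to 12.1 to 15.2 CPM, also apart (-1.07 ± 0.22, adjusted p = 2.44e-04). On control diet Tnfsf10 changed by -0.85 (adjusted p = 0.00265) and Il1a by -0.32 (adjusted p = 0.213). In the xenobiotic list, Por, the reductase that supplies electrons to cytochromes P450, went from 401 to 458 CPM to 205 to 279.5 CPM (-0.77 ± 0.17, adjusted p = 6.80e-04), and the receptor gene Nr1i2 (PXR) rose by 0.53 ± 0.11.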
